A study of Mus musculus with 2 samples.

Results

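Total RNA from embryonic mouse heart and from embryonic mouse limb, both of CD-1 strain embryos at embryonic day 11.5, was sequenced after ribosomal RNA depletion, with 1 sample of tissue pooled from several embryos per tissue and no genetic or chemical treatment in either. The files list tissue-specifically transcribed regions (TSTRs), stretches of intergenic sequence with at least 10 reads in a tissue that were selected by the authors on a z-test of the proportions of heart and limb reads. Of the 1912 TSTRs in the 2 lists, 8 lay on chromosome 1 between 188.25 and 188.6 Mb of the mm9 genome (NCBI build 37), around the gene Tgfb2. Of these 8, 7 were among the 834 heart TSTRs and 1 was among the 1078 limb TSTRs. The 8 were thus chosen by position from lists selected on the heart-to-limb contrast itself, and all differences between the tissues are given as a description, without a test. The 7 heart TSTRs are numbered here from 1 to 7 along the chromosome.

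Tgfb2 encodes transforming growth factor beta 2, a secreted ligand that is released from a latent complex, binds a pair of receptor kinases with the help of the co-receptor encoded by Tgfbr3, and acts through the SMAD transcription factors. In the embryonic heart the pathway is known for its part in forming the endocardial cushions, from which valves and septa arise, and the outflow tract. In the limb bud, TGF-beta signalling takes part in the formation of cartilage and tendon. Enhancer RNAs are short, mostly unstable transcripts made from distant enhancers, and total RNA libraries without poly(A) selection hold them at low levels. The files hold no value for Tgfb2 itself, since all regions that overlap genes were removed, so the level of its mRNA in either tissue was not analysed here.

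Read count, RPKM and region length together gave one total for each tissue, 222362239 reads in heart and 192488089 reads in limb. For a count of 0, a floor of 3 reads was used, a share of 1.56e-06% of the limb reads, while the exact Poisson interval has an upper limit of 3.69 reads at 0. Intervals are exact 95% Poisson intervals of the counts and cover counting error only, since a single pool per tissue gives no spread between embryos. Tissue identity could be examined only through the genes closest to the TSTRs. Of 8 heart marker genes, 3 (Nkx2-5, Myl2 and Tbx20) were closest to 13 heart TSTRs, 1.56% of the heart list, 10 of them at Nkx2-5. Of 8 limb marker genes, 3 (Lmx1b, Prrx1 and Tbx4) were closest to 12 limb TSTRs, 1.11% of the limb list, and to 0 heart TSTRs. These assignments use coding starts only, and the nearest of the 12 lay 25793 bases from its marker. With non-coding starts counted too, 10 of the 13 heart TSTRs but 0 of the 12 limb TSTRs stayed closest to a marker. The limb markers are thus a weak check of tissue identity. The heart markers Myl7, Tnnt2, Gata4 and Myh6 were closest to no TSTR in either list. The same held for the limb markers Hoxd13, Hoxa13, Fgf8, Shh and Hand2. Tbx5, a marker of the heart that the forelimb also expresses, was closest to 8 limb TSTRs.

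Sequences are shown first for the TSTR with the most reads in each of the 3 clusters described below and for the limb TSTR, because these carry most of the reads of the locus. Each is the plus strand of mm9 over 300 bases around the centre of the TSTR, with capitals marking a match to 1 of the 7 motifs named later.
TSTR 1, chr1:188413252-188413551: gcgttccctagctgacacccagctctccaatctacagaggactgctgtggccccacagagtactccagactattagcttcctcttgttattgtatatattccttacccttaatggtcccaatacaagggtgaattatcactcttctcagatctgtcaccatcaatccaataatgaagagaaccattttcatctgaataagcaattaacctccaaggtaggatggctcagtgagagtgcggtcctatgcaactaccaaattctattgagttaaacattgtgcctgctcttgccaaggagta
TSTR 3, chr1:188423365-188423664: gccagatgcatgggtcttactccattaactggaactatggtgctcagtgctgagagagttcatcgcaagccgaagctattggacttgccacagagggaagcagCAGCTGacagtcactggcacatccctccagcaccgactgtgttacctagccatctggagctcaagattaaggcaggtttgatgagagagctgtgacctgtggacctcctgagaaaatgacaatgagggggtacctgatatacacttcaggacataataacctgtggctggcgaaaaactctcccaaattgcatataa
TSTR 5, chr1:188437785-188438084: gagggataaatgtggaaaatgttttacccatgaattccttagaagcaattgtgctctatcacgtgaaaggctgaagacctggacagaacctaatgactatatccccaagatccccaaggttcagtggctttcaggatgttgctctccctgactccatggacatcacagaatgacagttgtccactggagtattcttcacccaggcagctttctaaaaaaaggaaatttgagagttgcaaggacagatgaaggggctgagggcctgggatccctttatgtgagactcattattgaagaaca
Limb TSTR, chr1:188578244-188578543: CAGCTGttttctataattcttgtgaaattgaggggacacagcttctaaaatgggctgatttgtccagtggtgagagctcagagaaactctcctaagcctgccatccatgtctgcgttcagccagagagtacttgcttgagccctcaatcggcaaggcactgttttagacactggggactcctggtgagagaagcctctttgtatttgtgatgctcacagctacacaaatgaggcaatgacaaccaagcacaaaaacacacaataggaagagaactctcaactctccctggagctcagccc

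Among the 7 heart TSTRs, all heart counts were above all limb counts. TSTR 1 (chr1:188412958-188413845) had 187 reads in heart (161 to 216) and 0 in limb, an RPKM of 0.948 (0.817 to 1.09) against a limb RPKM of 0.0176 for 3 reads. Its neighbour TSTR 2 (chr1:188414635-188415433) had 57 heart reads (43.2 to 73.9) and 0 limb reads, a heart RPKM of 0.321 (0.243 to 0.416). TSTR 3 (chr1:188423229-188423799) had 87 heart reads (69.7 to 107) and 0 limb reads, a heart RPKM of 0.686 (0.550 to 0.847). These 3 TSTRs lie farthest from Tgfb2 and include those with the highest and second-highest level. TSTR 4 (chr1:188424908-188425201) was the weakest, with 14 heart reads (7.65 to 23.5), 0 limb reads and a heart RPKM of 0.215 (0.118 to 0.361).

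The other 3 TSTRs lie nearer to Tgfb2. Of these, TSTR 5 (chr1:188437201-188438667) had 126 heart reads (105 to 150) and a heart RPKM of 0.387 (0.322 to 0.460), and it held the only limb read of the 7, an RPKM of 0.00354. TSTR 6 (chr1:188439367-188439779) had 43 heart reads (31.1 to 57.9), 0 limb reads and a heart RPKM of 0.469 (0.340 to 0.632). TSTR 7 (chr1:188440561-188440900) had 20 heart reads (12.2 to 30.9), 0 limb reads and a heart RPKM of 0.265 (0.162 to 0.410). The members thus differed in heart while nearly all of them shared a limb count of 0. In pooled tissue, fewer cells that transcribe a region and less RNA per cell cannot be told apart.

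**Figure D1:**
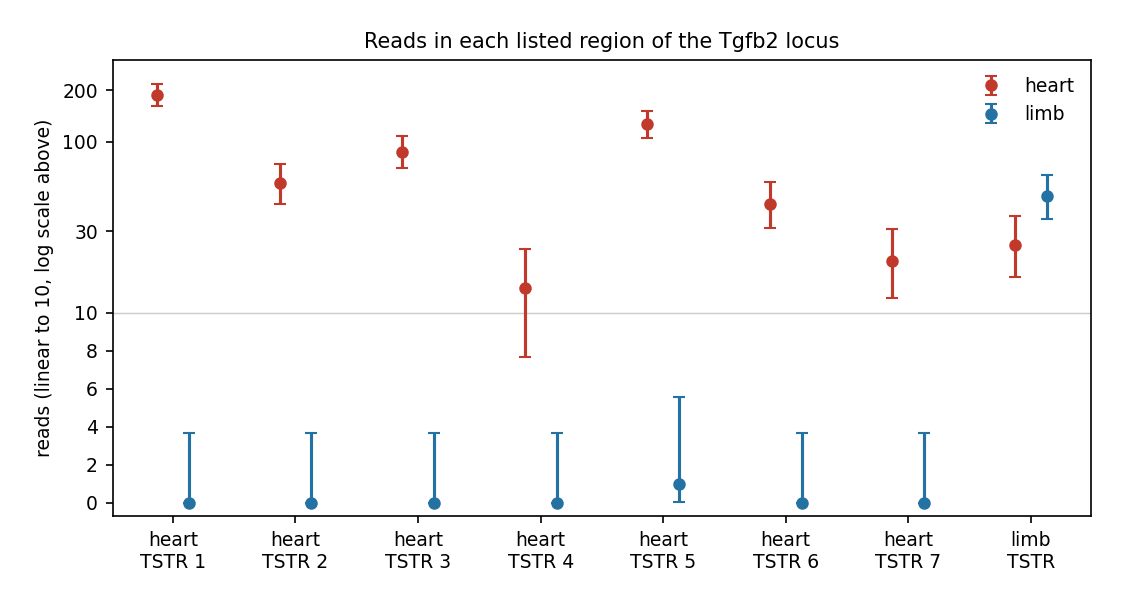
Reads in heart (red) and limb (blue) for heart TSTRs 1 to 7 and the limb TSTR, with points for the counts of the single pool per tissue and bars for exact 95% Poisson intervals, on an axis that is linear up to 10 reads and logarithmic above. Heart counts of TSTRs 1 to 7 run from 14 to 187 while limb counts are 0 or 1, and at the limb TSTR both tissues have reads, 25 in heart and 48 in limb.

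Per total reads, the 7 regions together had 534 heart reads and 1 limb read, a heart level 462 times that of limb with an interval from 82.6 to 18292. With limb at 0 no finite ratio exists for a single TSTR, so its heart count was set against a floor of 3 limb reads. Against this floor, heart was 54.0-fold higher in TSTR 1, 25.1-fold in TSTR 3, 16.5-fold in TSTR 2 and 12.4-fold in TSTR 6. The floor-based ratios of TSTR 7 and TSTR 4, 5.77 and 4.04, were low because their heart counts were low. These ratios take the heart count as exact, and the floor is below the upper limit of 3.69 limb reads. They are thus not lower limits of a counting interval. In TSTR 5, with 1 limb read, the ratio was 109 (19.2 to 4342), and its lower limit is not comparable with the floor-based ratios.

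A limb count of 0 was found in 6 of the 7 TSTRs, against 22.8% of the whole heart list (190 of 834), and since the list was made from the same contrast nothing is read from these shares. Among the 190 heart TSTRs without limb reads, TSTR 1 had the third-highest heart count, after a region closest to Pdlim5 (302 reads) and a region closest to Nkx2-5 (276 reads). Pdlim5 encodes a scaffold protein of the muscle Z-disc, and Nkx2-5 a homeodomain factor of cardiac progenitors. The depth of the limb library set what could be seen. For 5 of the 7 TSTRs, 3 limb reads correspond to an RPKM below 0.0404, the median limb RPKM of the heart list, and for the shorter TSTR 4 and TSTR 7 they correspond to 0.0532 and 0.0460. At the exact upper limit of 3.69 reads, TSTR 6 too was above that median (0.0465). A limb level under these values could give a count of 0 at this depth, so a 0 in a single region does not exclude it. Over all 4765 bases of the 7 TSTRs, the upper bound of the limb RPKM was 0.00608, against a heart RPKM of 0.504 (0.462 to 0.549).

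The heart levels of the 7 TSTRs spanned 4.41-fold, from TSTR 4 to TSTR 1 (interval of this ratio 2.57 to 8.23). In descending order of RPKM they were TSTRs 1, 3, 6, 5, 2, 7 and 4. Of all 21 pairs, 14 had a ratio whose interval lay above 1, and 9 of these had intervals of the single levels that did not overlap. TSTR 1 exceeded each of the other 6 by its ratio, TSTR 3 by a margin of 1.38 (1.065 to 1.802). TSTR 3 in turn exceeded the remaining 5, TSTR 6 only just (1.46, 1.004 to 2.159). Further down the order, TSTRs 6 and 5, 5 and 2, 2 and 7, and 7 and 4 were neighbours whose ratio intervals included 1. These are counting intervals of 1 heart library, not adjusted for the number of pairs. TSTR 1 was 2.95 times TSTR 2 (2.18 to 4.04), although only 790 bases separate them. Likewise, TSTR 3 was 3.19 times TSTR 4 (1.81 to 6.08) at a distance of 1109 bases.

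Within the heart list, the members lay on both sides of the middle. By heart RPKM, TSTR 1 ranked 74 and TSTR 3 ranked 100 of 834, while TSTR 4 ranked 700. The median of the 7 was 0.387, against 0.290 for the whole heart list, with 5 members above that median and 3 above the upper quartile of 0.412. Their median length was 570 bases, against 424.5 bases for the list. The 7 TSTRs made up 0.839% of the regions of the heart list and 0.904% of its bases. They held 0.784% of its heart reads (Wilson interval 0.720 to 0.853%). Of its limb reads they held 0.00432% (1 of 23137, Wilson interval 0.000763 to 0.0245%). This limb share rests on 1 read in a list selected on the same contrast. Of the 23137 limb reads, 2805 came from a single locus, closest to Gm6420.

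**Figure D2:**
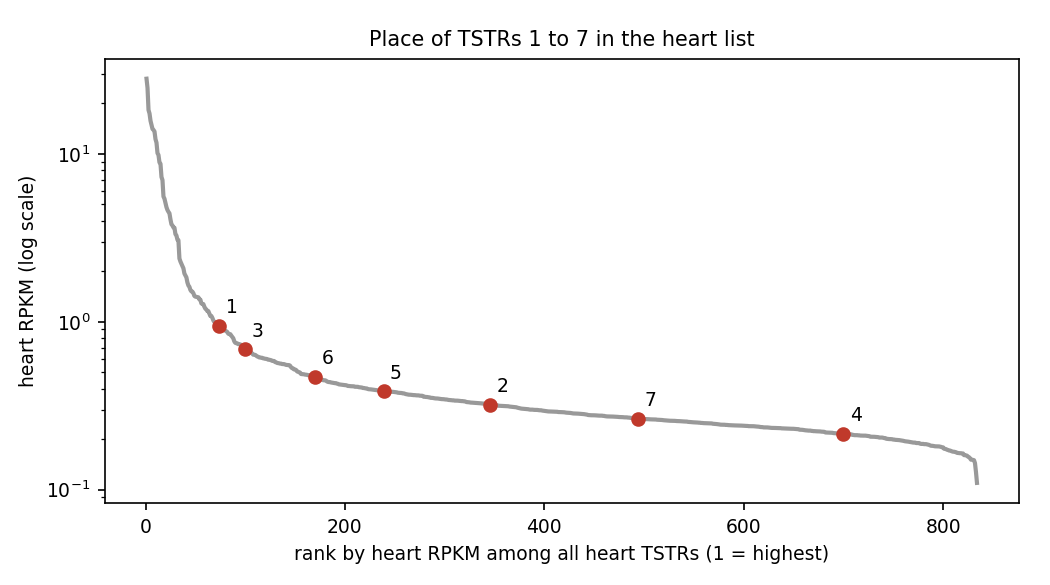
Heart RPKM on a log axis against rank for all 834 heart TSTRs (grey line), with TSTRs 1 to 7 of the Tgfb2 locus as red points. TSTRs 1, 3, 6, 5 and 2 lie above the list median of 0.290 and TSTRs 7 and 4 below it.

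In the GENCODE vM1 annotation of mm9, Tgfb2 lies on the minus strand of chromosome 1 from 188447065 to 188529871, and the 7 heart TSTRs lie beyond its 3′ end. The closest, TSTR 7, ends 6164 bases from that 3′ end, and TSTR 1 begins 34106 bases from it. No annotated gene overlaps any of the 8 TSTRs. The distance to a start site depends on the transcript. From the edge of TSTR 7 that faces Tgfb2, the start of the full-length Tgfb2 transcript is 88971 bases away, while an annotated shorter transcript that begins at 188458148 starts 17248 bases away. Between Tgfb2 and the next protein-coding gene on that side, Lyplal1, which encodes a lysophospholipase-like protein, lie 505875 bases, and the 7 heart TSTRs, all within 34106 bases of Tgfb2, were the only listed regions in this interval. On the other side of Tgfb2 the next protein-coding gene is Rrp15 (188544857 to 188573237). Beyond the window, D1Pas1, which encodes an RNA helicase of the DEAD-box family, lies 350394 bases from the heart TSTRs. Outside the window, the nearest listed regions were 1222075 bases below it (a limb TSTR with 7 heart and 26 limb reads) and 1439517 bases above it (a heart TSTR with 15 heart and 2 limb reads). The deposited counts carry no strand, so the direction of transcription at these TSTRs was not analysed here.

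Joining regions at most 2000 bases apart left 3 clusters along a span of 27942 bases, of which the TSTRs cover 17.1%. The far cluster, TSTRs 1 and 2, held 244 heart reads, 45.7% of the heart reads of the locus, at an RPKM of 0.651 (0.572 to 0.738). The middle cluster, TSTRs 3 and 4, held 101 reads (18.9%) at 0.526 (0.429 to 0.640). The near cluster, TSTRs 5, 6 and 7, held 189 reads (35.4%) at 0.383 (0.331 to 0.442). The pooled level per length was thus highest in the far cluster and lowest in the near cluster. Single TSTRs did not follow this order. TSTR 2 of the far cluster (0.321) was below TSTRs 5 and 6 of the near cluster (0.387 and 0.469), with overlapping intervals. The lowest of the 7, TSTR 4 (0.215), was in the middle cluster. The far and near clusters had intervals that did not overlap, whereas the middle cluster overlapped both. Gaps of 7796 and 12000 bases without a listed region separated the clusters, against gaps of 700 to 1109 bases within them.

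**Figure D3:**
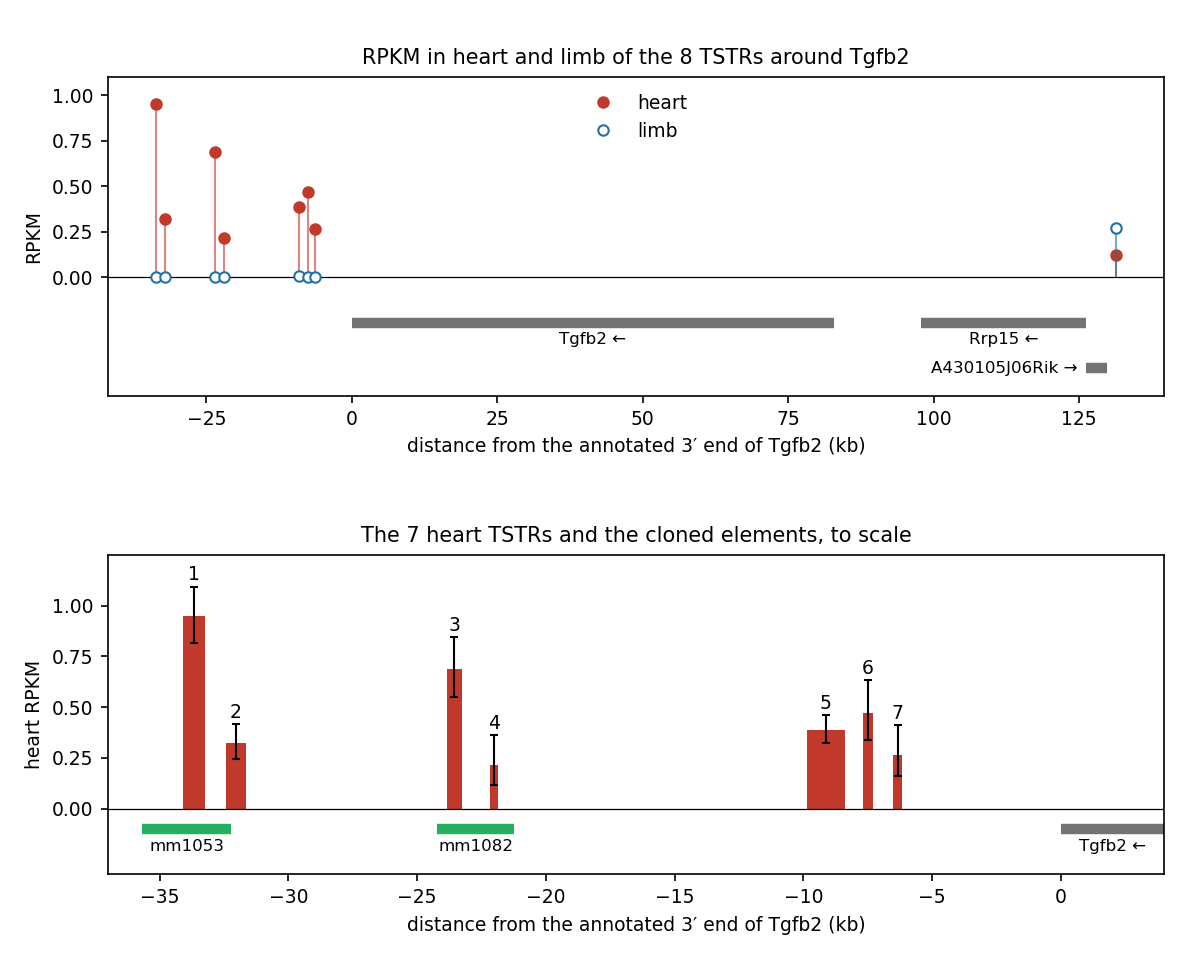
Upper panel, RPKM in heart (filled red) and limb (open blue) of the 8 TSTRs against distance in kb from the annotated 3′ end of Tgfb2, with genes as grey bars and arrows for their direction. Lower panel, the 7 heart TSTRs at their true width with exact 95% Poisson intervals of the heart RPKM and the cloned elements mm1053 and mm1082 in green. The heart TSTRs form 3 clusters between 6164 and 34106 bases past the 3′ end (negative distances), and mm1053 and mm1082 hold all of TSTRs 1, 3 and 4 and a part of TSTR 2.

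Elements mm1053 and mm1082 were cloned from this locus for transgenic reporter assays, in which a candidate sequence is placed before a minimal promoter and lacZ. That an element was cloned says nothing of its activity, and the assay results are not reported here. Their cloning primers, shown because they fix which bases of the locus were tested, matched mm9 exactly and at a single place each. Capitals mark the part that matches the genome, and the lower-case bases of the forward primers are the cloning overhang.
mm1053 forward: caccGCTACACCCAGGAAGAGCTG
mm1053 reverse: CAATGCTGATGGTGTTACGG
mm1082 forward: caccCCTAATCCCCCTCTCCAAAC
mm1082 reverse: AACAACAATGGAGGCGAAAC

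Element mm1053 spans chr1:188411394-188414852 (3459 bases) and contains all of TSTR 1, but its reverse primer lies inside TSTR 2, so that only 217 of the 798 bases of TSTR 2 (27.2%) are in the element. Element mm1082 spans chr1:188422846-188425846 (3001 bases) and contains TSTRs 3 and 4 entirely. TSTRs covered 31.9% of mm1053 and 28.8% of mm1082. The 4 TSTRs that touch an element held 345 of the 534 heart reads of the locus. The near cluster, with 189 heart reads, was in neither element. None of the 74 primers listed by the study for quantitative RT-PCR lies within the 8 TSTRs, so that no second measurement of these RNAs could be set beside the counts.

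The limb TSTR (chr1:188577936-188578851) lies on the opposite side of Tgfb2, 48066 bases upstream of its start and 137036 bases from TSTR 7. It had 48 limb reads (35.4 to 63.6) and 25 heart reads (16.2 to 36.9), a limb RPKM of 0.273 (0.201 to 0.361) against a heart RPKM of 0.123 (0.0795 to 0.181). Limb was 2.22 times heart (1.34 to 3.75). It thus had 25 reads in the tissue where it was lower, whereas the 7 heart TSTRs had 0 or 1. Its closest coding start, 4700 bases away, belongs to Rrp15, which encodes a protein of ribosomal RNA processing, and not to Tgfb2. The lincRNA A430105J06Rik starts 38 bases from the start of Rrp15 in the other direction and ends 1137 bases before the limb TSTR. In the limb list, 24.7% of the TSTRs had a lower limb RPKM.

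Joining heart TSTRs at most 15000 bases apart left 462 loci, of which 26 had at least 5 TSTRs and 15 had at least 7. Among these 26, the locus at Tgfb2 ranked 16 by heart reads. Its limb level per total reads was 0.216% of its heart level, the second-lowest of the 26, after a locus closest to Atp6v1h with 88 heart reads and 0 limb reads. Next came the locus of Nkx2-5, with 938 heart and 7 limb reads over 10 TSTRs (0.862%). Loci closest to Crh (1.22%), Hspb3 (1.69%), Kcna4 (2.25%) and Ano4 (2.30%) followed. The place of the Tgfb2 locus rests on 1 limb read, with a heart-to-limb interval from 82.6 to 18292. The order of the loci with the lowest limb levels is thus not resolved. The median of the 26 loci was 16.0%.

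Set beside it were the other 2 loci with 7 TSTRs and, of the 5 with 6 or 8, the one with the most heart reads, each named by its closest coding start. The 7 TSTRs at Dlg2, a gene for a synaptic scaffold protein, had 433 heart and 72 limb reads, a heart-to-limb ratio of 5.21 (4.05 to 6.78). The 7 TSTRs at Tigd2, a gene derived from a transposase, had 709 and 292 reads, a ratio of 2.10 (1.83 to 2.42). The 6 TSTRs closest to Qk, which encodes an RNA-binding protein of the STAR family, had 1527 and 396 reads, a ratio of 3.34 (2.99 to 3.74). At the Qk locus the closest coding start lay 117965 bases away, against 361 at Dlg2 and 3506 at Tigd2. In all 3, every TSTR had limb reads, as in most of the 26 loci. Their median TSTR lengths were 1109 bases at Dlg2, 1275 at Tigd2 and 1028 at Qk, against 570 at Tgfb2. Limb counts of single TSTRs were thus not taken over like lengths. In the other 4 loci with 6 or 8 TSTRs (Map3k7, Cdh2, 1190002N15Rik and Adamts9), the limb level was 14.2%, 32.1%, 53.7% and 59.0% of the heart level. TSTRs covered 17.1% of the span of the Tgfb2 locus, against 35.0 to 60.4% in the other 3. The lists hold only regions that passed the z-test, and no test of these differences was made.

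**Figure D4:**
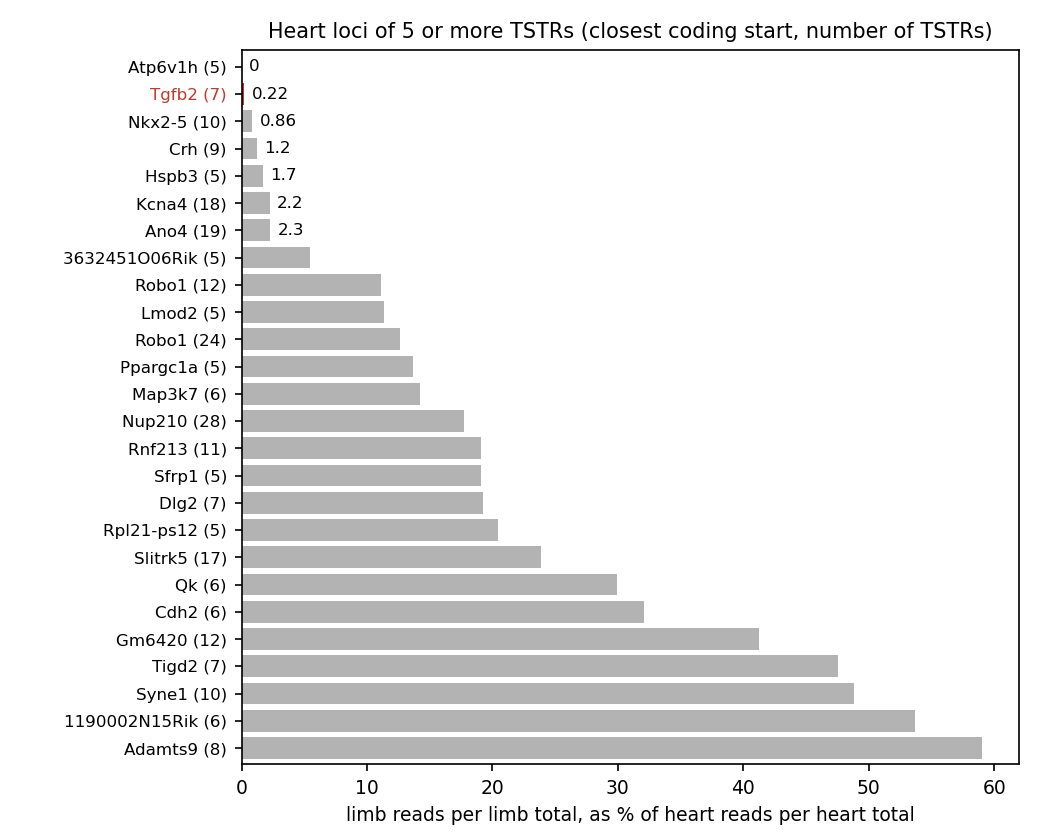
Limb reads per limb total as a percentage of heart reads per heart total, for the 26 loci with at least 5 heart TSTRs, named by the closest coding start with the number of TSTRs in parentheses. The Tgfb2 locus (red label) is at 0.216%, second from the top, and the other loci reach 59.0%.

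A list of 58 genes of the TGF-beta and BMP pathways was searched for TSTRs whose closest coding start belonged to one of them. In all, 15 of the 834 heart TSTRs were closest to 5 of the genes, and 24 of the 1078 limb TSTRs were closest to 9. The 15 include the 7 heart TSTRs of Tgfb2, which were chosen by their position at that gene, and 8 remain without them. No number expected for 58 genes was calculated, so the counts do not show whether TSTRs favour these genes. Of the 13 ligand genes, Tgfb2 was the only one with heart TSTRs, and Tgfb1 and Tgfb3 had none in either list. The ligand genes Bmp2, Bmp10 and Gdf11 had 1 limb TSTR each, with 15, 36 and 47 limb reads. Among 12 receptor genes, Bmpr1b, which encodes a type I BMP receptor, was closest to 4 heart TSTRs with 277 heart and 45 limb reads. The nearest of these 4 lay 64280 bases from its start. Bmpr1a was closest to 1 limb TSTR, 549 bases from its start. None of the 6 SMAD mediator genes had a TSTR. The inhibitory SMAD gene Smad6 had 1 heart TSTR, 109 bases from its start, with 19 heart and 4 limb reads.

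Of the 10 genes listed here as targets of the pathway, 4 were closest to 18 of these 24 limb TSTRs, 1.67% of the limb list. Twist1, a transcription factor gene of limb mesenchyme, was closest to 14 limb TSTRs with 986 limb and 274 heart reads and to 1 heart TSTR with 188 heart and 128 limb reads. Id2, whose product blocks basic helix-loop-helix factors, was closest to 1 limb TSTR with 172 limb and 70 heart reads. Vcan, which encodes a proteoglycan of cardiac jelly, was closest to 2 heart TSTRs with 143 heart and 77 limb reads. Among the genes that handle the latent complex, Fbn2, a microfibril gene, was closest to 2 limb TSTRs with 393 limb and 82 heart reads. When starts of non-coding genes were counted too, the 7 TSTRs of Tgfb2 stayed closest to it. Those of Vcan and Fbn2 were then closer to another start, as were all limb TSTRs of the limb markers Lmx1b, Prrx1 and Tbx4. Of the 10 heart TSTRs of Nkx2-5, 7 stayed closest to it. Few reads in the other tissue were not particular to Tgfb2 (534 heart reads and 1 limb read). The single limb TSTR of Bmp2 had 15 limb reads and 1 heart read. The 2 heart TSTRs of the marker Myl2 had 578 heart reads and 1 limb read. The 9 limb TSTRs assigned to the marker Lmx1b by coding starts only had 1619 limb and 2 heart reads. Over all 416 genes that were closest to a heart TSTR, 16 had more heart TSTRs than Tgfb2.

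No similarity was found among the 7 heart TSTRs or between them and the limb TSTR, as none of the 28 pairs gave a blastn alignment at an E value of at most 0.001. Their GC content ran from 36.7% in TSTR 6 to 49.0% in TSTR 7, with a median of 44.5% against 40.9% for the heart list, and the limb TSTR had 47.7%. CpG dinucleotides were at 0.102 to 0.284 of the number expected from base composition, with a median of 0.193 against 0.191 for the heart list. The 300-base windows printed above for TSTRs 1 and 5 hold no match to the motifs.

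On both strands of the 300 bases around each centre, 7 motifs were searched, and no match overlapped another in the windows of the 8 TSTRs. AGATAA, bound by GATA factors, was in TSTRs 4 and 6 and in 19.4% of all 1912 windows. GGAATG, bound by TEAD factors, was in TSTR 4 and in 15.9% of all windows. The E-box CAGCTG was in TSTR 3, at base 104 of the sequence printed above, at the first base of the limb TSTR window and in 11.9% of all windows. For T-box factors (AGGTGTGA), NKX2-5 (CACTTAA), SMAD factors (GTCTAGAC) and MEF2 factors (CTAAAAATA), no heart TSTR window held the letters searched, and these were in 0.785%, 5.07%, 0.314% and 1.20% of all windows. Over the whole length of the TSTRs, CACTTAA was in TSTR 1 and in 10.2% of all TSTRs, and AGATAA was also in TSTR 5 and in 34.5% of all TSTRs. A match is a description of the letters only, and a missing match says nothing of binding outside the window.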

How the data were processed

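Strand-specific libraries were made from 1 pool per tissue by the dUTP method. The authors filtered 50-base reads with CASAVA 1.8, mapped them against mm9 using bowtie2 (version not given in the sources used here), extended alignments to 200 bases, excluded repetitively mapped reads, called regions with USeq and removed those overlapping genes, mRNAs or ESTs. They deposited raw read counts without strand, and RPKM values, which the counts show to be scaled to the length of each region and to a single read total per tissue. That length is end minus start, so the first base of a TSTR is the printed start plus 1.

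The members, gene lists, motifs and compared loci were chosen with earlier results of these data known. All 8 members are named, with the genes of the locus, the 5 listed pathway genes with most reads and the 3 loci closest in TSTR number, with ties settled by heart reads. Nkx2-5, Pdlim5, Atp6v1h, Crh, Hspb3, Kcna4, Ano4 and the other pathway genes were named after their values were seen. With 1 sample per tissue no test was run. Intervals are exact Poisson, conditional binomial or Wilson intervals at 95%. The NCBIM37 genome and GENCODE vM1 annotation are of the build of the files. Calculations were tested on simulated data and ran in Python 3.11.15 with numpy 2.4.6, pandas 2.3.3, scipy 1.17.1 and blastn 2.17.0. Alternatives were other totals, floors, joining distances, overlap rules, start sites and motif windows.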

Additional observations from a re-analysis of the deposited data

How the results depend on the processing

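Of 36 alternatives for the main values, 28 stayed close to the main value, and 0 changed direction. Close meant within the counting interval for ratios, floor-based ones included. For counts, shares and the spread of levels it meant within 1.5 times of the main value. With a floor of 1 limb read in place of 3, the floor-based ratios rose, which follows from the floor itself. They were 162 in TSTR 1, 49.3 in TSTR 2, 75.3 in TSTR 3, 12.1 in TSTR 4, 37.2 in TSTR 6 and 17.3 in TSTR 7. Raw reads without scaling gave a floor-based ratio of 62.3 for TSTR 1. Without division by length, the spread between the highest and lowest heart value was 13.4-fold in place of 4.41-fold. The clusters numbered 4 with joining at 1000 bases and 2 at 10000 bases. No region was gained by widening the window by 100000 bases. Over whole TSTRs, TEAD letters were in 3 of the 7 (29.4% of all 1912 TSTRs), E-box letters in 2 (22.4%) and NKX2-5 letters in 1 (10.2%). No paired analysis was possible because each tissue has a single pool. Depth limits the limb values of single TSTRs, and a single pool per tissue limits every comparison.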
